A study of Homo sapiens with 6 samples.

Results

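The genes described here encode 8 enzymes of amino acid metabolism. ASNS makes asparagine, GOT1 makes and uses aspartate, GPT2 makes alanine, GLUL makes glutamine, ALDH18A1 and PYCR1 make proline, ASS1 takes part in making arginine and CTH makes cysteine. They were chosen by gene symbol, and each symbol matched 1 of the 58735 Ensembl rows of the count table. All 8 had enough counts to be tested among 13503 genes. Expression was measured by RNA sequencing of polyadenylated RNA in RKO, an established human cell line from a colorectal carcinoma. RKO cells treated with EZA (3 libraries) were set against RKO cells treated with DMSO, the solvent control (3 libraries). EZA is not spelled out in the labels, and the sources used here give neither its dose nor its duration. Replicates are described as biological with no word on separate cultures, and p-values cover only the spread among the 6 libraries.

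Cells make these amino acids from glutamate, aspartate and intermediates of glycolysis and the citric acid cycle. When amino acids run short, or the endoplasmic reticulum or mitochondria are stressed, phosphorylation of the translation factor eIF2alpha favours translation of the transcription factor ATF4. ATF4 binds, often with C/EBP proteins, to sequences known as C/EBP-ATF response elements (CARE), and ASNS is a classic target through such an element in its promoter. GPT2, PYCR1, ALDH18A1 and CTH have also been described as ATF4 targets in other cells.

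Promoter sequences are shown for ASNS and GOT1, which hold the core of this element, and for CTH and ALDH18A1, which do not. They come from RefSeq (GRCh38.p14), read 5′ to 3′ on the strand of the gene, and run from 250 bases before to 50 bases after an annotated start. Capitals mark a match to TGATGNAA on either strand, where N is any base.
ASNS, chr7:97872359-97872658, minus strand: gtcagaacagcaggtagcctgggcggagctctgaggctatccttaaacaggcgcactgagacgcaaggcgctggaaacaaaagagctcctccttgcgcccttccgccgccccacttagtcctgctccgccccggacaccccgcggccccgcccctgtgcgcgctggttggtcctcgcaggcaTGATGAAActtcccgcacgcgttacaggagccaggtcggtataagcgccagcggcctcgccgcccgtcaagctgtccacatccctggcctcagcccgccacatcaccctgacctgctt
GOT1, chr10:99430575-99430874, minus strand: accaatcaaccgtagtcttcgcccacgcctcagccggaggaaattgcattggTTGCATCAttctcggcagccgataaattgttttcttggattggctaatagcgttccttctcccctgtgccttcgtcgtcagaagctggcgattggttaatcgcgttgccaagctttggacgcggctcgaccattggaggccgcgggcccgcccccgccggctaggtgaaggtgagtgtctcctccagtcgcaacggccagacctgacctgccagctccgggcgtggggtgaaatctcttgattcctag
CTH, chr1:70411018-70411317, plus strand: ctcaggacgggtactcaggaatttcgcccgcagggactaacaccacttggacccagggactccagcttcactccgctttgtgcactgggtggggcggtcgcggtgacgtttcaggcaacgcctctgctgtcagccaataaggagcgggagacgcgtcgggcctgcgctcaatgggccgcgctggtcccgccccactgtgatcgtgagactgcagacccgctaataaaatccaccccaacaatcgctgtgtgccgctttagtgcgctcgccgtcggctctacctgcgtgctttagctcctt
ALDH18A1, chr10:95656662-95656961, minus strand: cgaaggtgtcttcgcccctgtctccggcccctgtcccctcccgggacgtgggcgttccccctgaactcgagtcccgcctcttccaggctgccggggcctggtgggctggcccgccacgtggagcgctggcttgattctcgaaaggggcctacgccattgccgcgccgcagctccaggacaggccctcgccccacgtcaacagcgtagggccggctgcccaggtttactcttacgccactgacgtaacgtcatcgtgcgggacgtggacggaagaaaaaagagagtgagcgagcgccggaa
In ASNS the match TGATGAAA began 68 bases before the start, on the strand of the gene. The window of another annotated ASNS start (chr7:97872116-97872415), not shown, held no match. In GOT1 the letters TTGCATCA, a match on the other strand, began 198 bases before the start. Of the 8 genes, 6 had a promoter in the table, ASNS, ASS1, ALDH18A1, GLUL, GOT1 and CTH, and these were the 2 with a match. PYCR1 and GPT2 had no entry there. Over all 27305 genes of the table, 4.46% had a match in at least 1 promoter, and of the 35116 promoters 3.62% had one. A match is a run of letters and not a demonstration of binding, and windows without a match say nothing on elements elsewhere.

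In EZA-treated cells, transcripts of 6 of the 8 enzymes were higher than in DMSO-treated cells, and those of ALDH18A1 and GLUL did not pass the test. The log2 fold changes (EZA over DMSO) were 4.20 for ASNS, 2.71 for CTH, 1.55 for GOT1, 1.28 for GPT2, 0.86 for ASS1 and 0.76 for PYCR1. A gene was called when its adjusted p in edgeR's quasi-likelihood test, with Benjamini-Hochberg adjustment over all 13503 genes, was below 0.05. By this rule 9.89% of all tested genes were called higher and 7.82% lower. ASNS, CTH, GOT1 and GPT2 also passed upward the cut-off that the study used, at least 2-fold with p under 0.05 before adjustment, as did 3.77% of all tested genes. The median log2 fold change of the 8 genes was 1.07, against -0.01 over all tested genes. In the 6 called genes every EZA library lay above every DMSO library, as in 21.0% of all tested genes. Members were chosen with earlier results of these data known, so these counts describe them and no more.

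**Figure D1:**
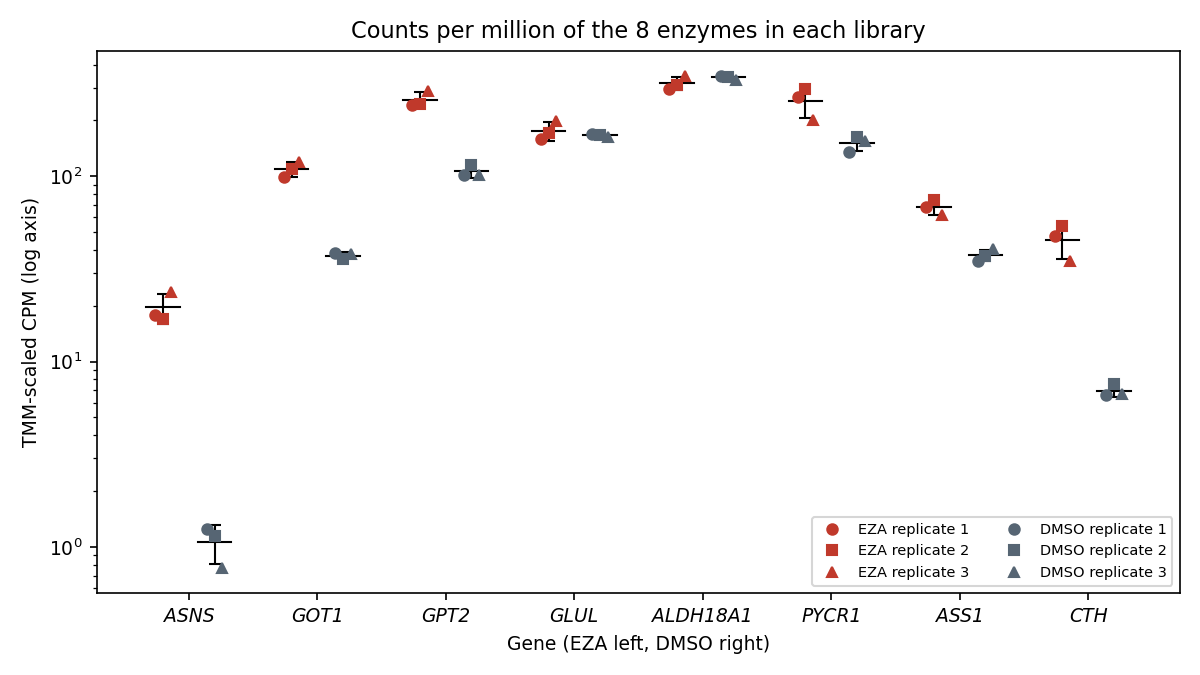
CPM, counts scaled to library size with TMM factors (logarithmic vertical axis), of the 8 genes in each library, with horizontal bars for group means and whiskers for 1 SD (n = 3 each). EZA and DMSO libraries are apart in 6 genes, with the widest gap in ASNS at 19.6 and 1.06 CPM, and overlap in GLUL and ALDH18A1.

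Libraries held 14070611 to 18840954 counts in EZA and 15343614 to 15778418 in DMSO. EZA replicate 3 stood apart: mitochondrial genes took 0.203% of its counts, against 3.68% to 4.29% in the other EZA libraries and 4.45% to 5.02% in DMSO. Of the 8 genes, 5 had their highest EZA value in this library and the other 3, ASS1, PYCR1 and CTH, their lowest. All 6 calls were also made without it, where 19.1% of all genes tested were called higher and 19.2% lower. Of the epithelial markers, KRT18 was at 125 ± 13.6 CPM in EZA and 126 ± 9.93 CPM in DMSO, and EPCAM at 7.24 ± 0.711 and 7.18 ± 0.879 CPM (SD, n = 3 each). KRT8 was at 29.5, 34.8 and 22.9 CPM in EZA and 15.7, 20.5 and 20.8 CPM in DMSO, with no overlap and a log2 fold change of 0.61 ± 0.19 that missed the threshold (SE; adjusted p = 0.0545, edgeR). CDX2, a colon transcription factor, was at 18.1 ± 5.85 CPM in EZA and 19.3 ± 0.450 CPM in DMSO. CDH1 (E-cadherin) and CDX1 had 0 counts in every library. The other listed markers of these types, KRT19, CLDN4, VIL1, KRT20, LGALS4 and GPA33, also had too few counts to be tested. Of 6 epithelial markers 3 could thus be tested, and of 6 colon markers 1, CDX2. Summed over 6 marker genes each, fibroblast markers had 0 to 5 counts in EZA and 5 in each DMSO library, leukocyte markers 0 to 36 and 12 to 25, and endothelial markers 0 to 15 and 0 to 3.

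ASNS, asparagine synthetase, transfers an amino group from glutamine to aspartate. ASNS (ENSG00000070669, chromosome 7, 97851677 to 97872542, minus strand, GRCh38) had 282, 308 and 336 counts in EZA replicates 1 to 3, against 20, 18 and 12 in DMSO replicates 1 to 3. After scaling these were 17.9, 17 and 23.8 CPM in EZA and 1.25, 1.15 and 0.767 CPM in DMSO. Every EZA library was far above every DMSO library, and the log2 fold change of 4.20 ± 0.25 (SE; adjusted p = 8.31e-05, edgeR) was the 8th highest of all tested genes. As summed counts per total count the ratio was 17.6, with an exact 95% interval of 13.3 to 23.9 that covers counting error only. RNA was measured in bulk, so a change in every cell and a larger change in fewer cells cannot be told apart for this or any other gene here, nor can fewer cells of a type and less RNA per cell.

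Nearly all of the ASNS transcript is shared with another annotated gene. In GENCODE 44, 2374 of the 2385 bases of its canonical transcript (99.5%) also lie in exons of ENSG00000284707, a long noncoding readthrough gene on the same strand. That gene had 6, 4 and 17 counts in EZA and 1, 3 and 7 in DMSO. How the authors counted reads shared by both genes is not stated, and its part in the level of ASNS was not tested. A processed pseudogene annotated on the opposite strand inside ASNS, ENSG00000226744, shares no exon base with it. The pseudogene had 22, 22 and 11 counts in EZA and 0, 2 and 0 in DMSO, the same direction as ASNS. The libraries carry no strand information, so these reads cannot be told apart from unspliced RNA of ASNS. Pseudogenes of ASNS elsewhere (4 in the table) had 4 counts in the 6 libraries together.

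Aspartate, the substrate of ASNS, is made by aspartate aminotransferase, with GOT1 in the cytosol and GOT2 in mitochondria. Both enzymes take part in the malate-aspartate shuttle, which moves reducing equivalents between the compartments. GOT1 (ENSG00000120053, chromosome 10, 99396870 to 99430624, minus strand) was at 99.5, 109 and 119 CPM in EZA and 38.3, 35.6 and 38.0 CPM in DMSO. The groups were well apart, with a log2 fold change of 1.55 ± 0.13 (SE; adjusted p = 3.57e-04, edgeR). GOT2 was at 311, 323 and 238 CPM in EZA and 384, 364 and 358 CPM in DMSO. These groups did not overlap either, with EZA lower, as in 21.7% of all tested genes. At a log2 fold change of -0.34 ± 0.15, however, GOT2 did not pass the test (SE, adjusted p = 0.132, edgeR). In 16 of 17 other settings it was not called either. It was called lower without EZA replicate 3 once the dependence of counts on transcript GC content and length was removed. There it was at -0.33 ± 0.06 (SE, adjusted p = 4.35e-04, edgeR). The log2 ratio of GOT1 to GOT2 within a library was -1.64, -1.56 and -1.0 in EZA and -3.33, -3.36 and -3.24 in DMSO. The mean ratio was 1.90 higher in EZA, and every EZA library lay above every DMSO library. An exact two-sided permutation test gave p = 0.1, the smallest that 3 against 3 libraries allow (adjusted p = 0.2 over 4 pairs).

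Alanine is made from pyruvate and glutamate by GPT2 in mitochondria and by GPT in the cytosol. GPT2 (ENSG00000166123, chromosome 16, 46884362 to 46931289, plus strand) was at 241, 244 and 288 CPM in EZA and 101, 115 and 102 CPM in DMSO. The EZA libraries all had more than any DMSO library, with a log2 fold change of 1.28 ± 0.13 (SE; adjusted p = 0.00108, edgeR). GPT had 11, 4 and 5 counts in EZA and 1, 3 and 7 in DMSO, too few to be tested. Per gene length, GPT2 was at 40.1 FPKM in EZA and 16.3 FPKM in DMSO, and GPT at 0.152 and 0.0830 FPKM.

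CTH splits cystathionine to release cysteine, the last step of transsulfuration, the route from methionine to cysteine. CTH (ENSG00000116761, chromosome 1, 70411218 to 70439851, plus strand) was at 47.8, 53.8 and 34.7 CPM in EZA and 6.63, 7.60 and 6.65 CPM in DMSO. The lowest EZA library, replicate 3, was still far above the highest DMSO library, and the log2 fold change was 2.71 ± 0.19 (SE; adjusted p = 2.09e-04, edgeR). CBS makes the cystathionine that CTH uses. It had 0 counts in all 6 libraries, and no ratio to CTH was formed. GRCh38 carries a near-identical copy of CBS, so this 0 is uncertain.

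Proline is made from glutamate, with ALDH18A1 for the first step and the PYCR enzymes for the last. PYCR1 (ENSG00000183010, chromosome 17, 81932384 to 81942412, minus strand), a mitochondrial reductase, was at 268, 297 and 200 CPM in EZA and 135, 163 and 155 CPM in DMSO. EZA replicate 3 was the lowest of the treated libraries and lay nearest to DMSO, and the log2 fold change was 0.76 ± 0.17 (SE; adjusted p = 0.0196, edgeR). ALDH18A1 (ENSG00000059573, chromosome 10, 95605941 to 95656711, minus strand) was at 296, 312 and 347 CPM in EZA and 349, 343 and 331 CPM in DMSO. These groups overlapped, with a log2 fold change of -0.10 ± 0.12 (adjusted p = 0.604, edgeR).

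The call of PYCR1 depended on the setting. PYCR1 transcripts have a GC content of 62.6%, and protein-coding genes above 60% lay at a median of 0.44 on the log2 scale. After removal of the dependence of counts on transcript GC content and length, PYCR1 was at 0.34 ± 0.16 (SE; adjusted p = 0.20, edgeR), and removed without EZA replicate 3 it was at 0.50 (adjusted p = 5.84e-06). Its adjusted p was 0.0505 without EZA replicate 1 and 0.113, 0.0603 and 0.0908 without DMSO replicate 1, 2 or 3, within a range of 9.59e-09 to 0.268 over all settings. Of its canonical transcript, 19.8% also lies in exons of an antisense gene with 0 counts.

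Of 3 other proline genes given here, PYCR3 and ALDH4A1 were called higher in EZA. PYCR3, a cytosolic reductase of the last step, was at 85.7 ± 5.97 CPM in EZA and 56.4 ± 5.95 CPM in DMSO (SD, n = 3 each; log2 fold change 0.60 ± 0.13, SE; adjusted p = 0.0191, edgeR). ALDH4A1, which breaks proline down towards glutamate, was at 32.8 ± 6.07 CPM in EZA and 18.3 ± 0.944 CPM in DMSO (log2 fold change 0.84 ± 0.16, SE; edgeR adjusted p = 0.0132). PYCR3 and ALDH4A1 were not called with the GC and length trend removed, at 0.17 and 0.49 on the log2 scale.

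GLUL, glutamine synthetase, joins ammonia to glutamate. GLUL (ENSG00000135821, chromosome 1, 182378098 to 182392206, minus strand) was at 158, 171 and 199 CPM in EZA and 169, 167 and 162 CPM in DMSO. The EZA libraries spread around the narrow DMSO range, with a log2 fold change of 0.09 ± 0.13 (SE; adjusted p = 0.665, edgeR).

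ASS1, argininosuccinate synthetase, joins citrulline to aspartate in the urea cycle and in arginine synthesis. ASS1 (ENSG00000130707, chromosome 9, 130444961 to 130501274, plus strand) was at 68.0, 74.8 and 61.6 CPM in EZA and 34.8, 37.2 and 40.3 CPM in DMSO. The groups were apart in all libraries, with a log2 fold change of 0.86 ± 0.13 (SE; adjusted p = 0.00657, edgeR). ASS1 lost its call without DMSO replicate 1 (0.81, adjusted p = 0.0577) and in a fit with the replicate block on counts free of the GC and length trend (0.65, adjusted p = 0.0524). With the trend alone removed it was also at 0.65 (adjusted p = 0.0119). Its adjusted p ranged from 3.01e-08 to 0.0577 over all settings. Pseudogenes of ASS1 are many, and the 14 in the table had 152 counts in all, against 5065 of ASS1. ASL splits the product into arginine and fumarate. It was at 28.4 ± 2.66 CPM in EZA and 17.4 ± 2.90 CPM in DMSO (SD, n = 3 each). Its log2 fold change was 0.71 ± 0.16 (SE, edgeR adjusted p = 0.0230). With the GC and length trend removed ASL was at 0.40 (adjusted p = 0.0939, edgeR). ASL lost its call in 5 of 17 other settings. The log2 ratio of ASS1 to ASL was 1.26 ± 0.10 in EZA and 1.11 ± 0.22 in DMSO, with overlapping libraries (SD, n = 3 each; exact permutation p = 0.4, adjusted p = 0.53 over 4 pairs).

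**Figure D2:**
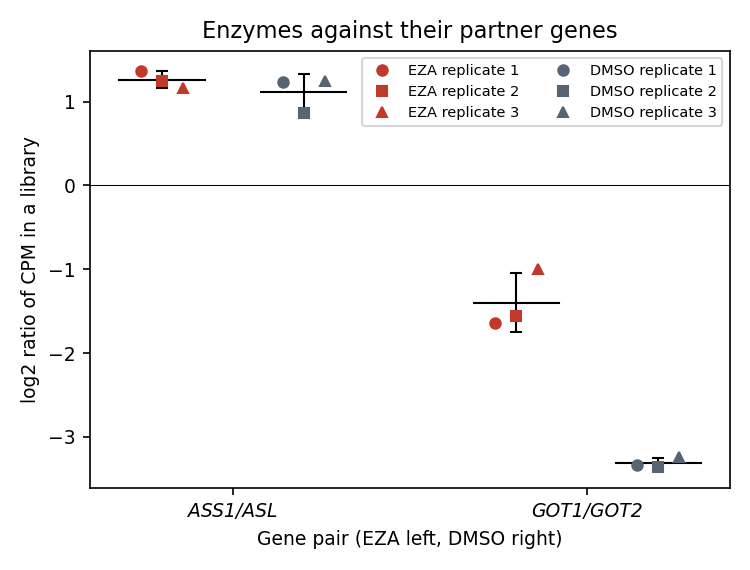
Log2 ratio of the CPM of ASS1 to ASL and of GOT1 to GOT2 within each library, with bars for group means and whiskers for 1 SD (n = 3 each). GOT1 relative to GOT2 lies at -1.40 in EZA and -3.31 in DMSO, while the ratio of ASS1 to ASL overlaps between the groups.

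Per gene length, the order of the 8 transcripts differed between the groups. By the authors' FPKM (fragments scaled to gene length and library depth), PYCR1 was at 87.6 ± 18.0 and ALDH18A1 at 83.7 ± 6.38 in EZA (SD, n = 3), with overlapping ranges. Below them came GPT2 at 40.1, GOT1 at 32.1, ASS1 at 22.1, GLUL at 19.3, CTH at 18.7 and ASNS at 4.34 FPKM. The ranges of ASS1 and GLUL overlapped, as did those of GLUL and CTH. In DMSO, ALDH18A1 led at 88.8 ± 2.63, followed by PYCR1 at 51.4, GLUL at 18.0, GPT2 at 16.3, ASS1 at 12, GOT1 at 10.8, CTH at 2.83 and ASNS at 0.233 FPKM. GLUL and GPT2 were the only neighbours in the DMSO order whose ranges overlapped. ASNS was last in both groups, but 99.5% of its canonical transcript is shared with ENSG00000284707. How such shared reads were counted is not stated, so the place of ASNS in the order is uncertain. By the means of these FPKM, GPT2 and GOT1 were thus below GLUL in DMSO and above it in EZA. The gene lengths behind the FPKM are not stated, and the order depends on them. In GENCODE 44, GLUL has 7554 bases in its canonical transcript and 12638 over all exons, and GPT2 has 3992 and 6362. By either length, the DMSO means of 166 CPM for GLUL and 106 CPM for GPT2 would put GPT2 above GLUL in DMSO as well. GOT1, at 37.3 CPM in DMSO, has 1978 and 2424 bases. It would lie below GLUL in DMSO by the canonical transcript and above it over all exons. The FPKM of the 8 genes summed to 298, 327 and 298 in EZA and 196, 207 and 198 in DMSO.

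**Figure D3:**
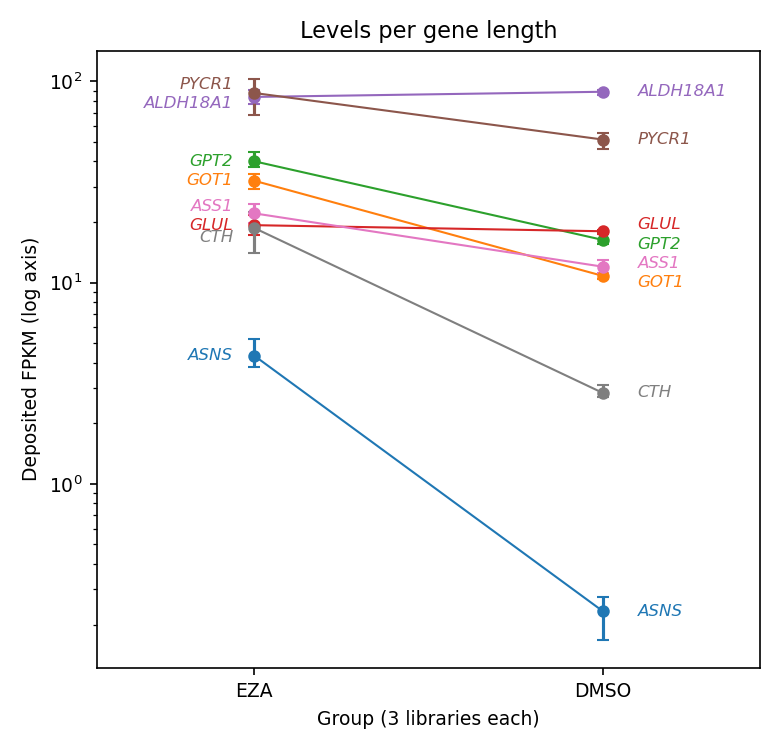
Deposited FPKM of the 8 genes (logarithmic vertical axis) in EZA and DMSO, with points for group means and whiskers from the lowest to the highest of 3 libraries. GPT2 and GOT1 lie above GLUL in EZA, at 40.1 and 32.1 against 19.3 FPKM, and below it in DMSO, at 16.3 and 10.8 against 18.0 FPKM. This order depends on the gene lengths used, and by GENCODE 44 lengths GPT2 would not lie below GLUL in DMSO.

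Most other genes of the same pathways were not called. Of 69 such genes 49 could be tested, and 8 were called higher and 0 lower, against 9.89% and 7.82% of all tested genes. The median log2 fold change of the 49 was 0.21. At the study's threshold 3 were higher, as were 3.77% of all tested genes. Without EZA replicate 3 they gave 16 higher and 9 lower, and without DMSO replicates 1, 2 or 3 they gave 2, 5 and 2 higher and 0 lower. With the GC and length trend removed 4 were higher, in a fit with 1355 calls over all genes. Of the 8, PSAT1 and OPLAH were called in each of 17 other settings, and the others lost their call in 3 (TST) to 10 (AZIN2) of the settings that tested them. No gene was called lower by DESeq2 or limma-voom, and 17 were higher and 5 lower at an unadjusted p below 0.05 in edgeR, where 18.0% of all tested genes were higher and 16.6% lower.

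Among the 9 other transaminases tested, PSAT1, of serine synthesis, was the single one called, at 402 ± 56.2 CPM in EZA and 106 ± 11.0 CPM in DMSO (SD, n = 3 each; log2 fold change 1.92 ± 0.15, SE; edgeR adjusted p = 3.41e-04). Of 13 other genes of glutamine and glutamate use 1 was called. This was OPLAH, which opens 5-oxoproline to glutamate, at 302, 289 and 396 CPM in EZA and 115, 157 and 131 CPM in DMSO. Its log2 fold change was 1.29 ± 0.17 (SE; adjusted p = 0.00410, edgeR), and 0.74 once the GC and length trend was removed. Glutamine-using synthases of nucleotides and amino sugars (PPAT, CAD, PFAS, GMPS, CTPS1, CTPS2, GFPT1 and GFPT2) were a subgroup formed with values in view. They did not pass, with log2 fold changes of -0.44 for PPAT to 0.48 for GFPT2. Without EZA replicate 3, PPAT, CTPS1, GMPS and PFAS were called lower and GFPT2 higher (0.65, adjusted p = 2.90e-06, edgeR). CAD, CTPS2 and GFPT1 were not called there either. In that fit 19.2% of all tested genes were called lower and 19.1% higher.

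Among 6 other genes of asparagine and aspartate use tested, 0 were called by edgeR and 0 by limma-voom, while 1 was higher and 2 were lower at an unadjusted p below 0.05. DESeq2 called 0 as well. Over all tested genes edgeR called 9.89% higher and 7.82% lower. Without EZA replicate 3, 2 of the 6 were called lower, in a fit where 19.2% of all tested genes were. These were ASNSD1 (-0.31, adjusted p = 0.0387, edgeR) and ADSS2 (-0.39, adjusted p = 0.0143). Of 9 other genes of the urea cycle and arginine, ASL and AZIN2, an inhibitor of antizymes in polyamine control, were called; AZIN2 was at 5.93 ± 1.41 CPM in EZA and 3.36 ± 0.132 CPM in DMSO (SD, n = 3 each). OTC, NOS1 and NOS2 were not tested for lack of counts. Of 12 other genes of transsulfuration and the methionine cycle, TST, a mitochondrial sulfur transferase, and AHCY, which splits S-adenosylhomocysteine, were called. TST was at 39.5 ± 7.03 CPM in EZA and 19.7 ± 2.48 CPM in DMSO, and AHCY at 492 ± 68.6 and 336 ± 21.5 CPM (SD, n = 3 each).

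**Figure D4:**
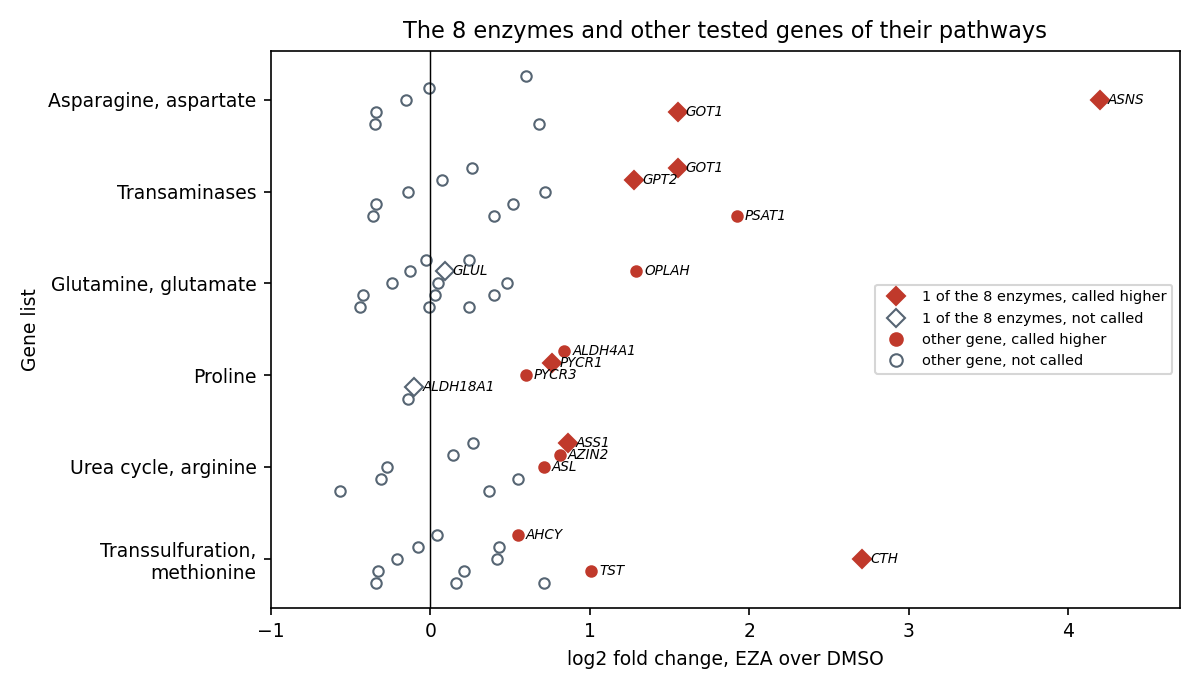
Log2 fold change (EZA over DMSO) of the 8 enzymes (diamonds) and of other tested genes of their pathways (circles), by list, with filled symbols for genes called higher in EZA; a gene can stand in more than 1 list. ASNS at 4.20 and CTH at 2.71 lie furthest right, and open circles spread on both sides of 0.

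For each of the 8 genes the nearest profiles were sought over the 6 libraries, as the Euclidean distance between log2 CPM values taken from the DMSO mean, among genes of at least 5 CPM. This is a description over 2 groups, and a short distance mostly says that the fold change was alike. ASNS lay nearest to SLC7A11 (distance 0.95) and DDIT4 (1.07), so no profile was close to it. CTH lay nearest to HMOX1 (0.22) and ATF3 (0.41), GOT1 to SHC2 (0.13) and SARS1 (0.20), and GPT2 to KLF15 and PPP1R15A (0.19 each). ASS1 lay nearest to MOCOS (0.08) and TUFT1 (0.11), PYCR1 to NMRK1 (0.07) and GRHPR (0.15), ALDH18A1 to LMAN2L (0.06) and SHMT1 (0.07), and GLUL to PSMD10 (0.06) and BLVRA (0.08).

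Fold changes of ASNS, CTH, GOT1 and GPT2 kept their call in all 17 other settings. Their log2 fold changes ranged from 4.02 to 4.36, 2.57 to 2.94, 1.42 to 1.61 and 1.05 to 1.36. The GC content of their transcripts was 44.5%, 44.2%, 49.2% and 55.1%, and protein-coding genes of 40% to 45%, 45% to 50% and 55% to 60% had median log2 fold changes of -0.22, -0.07 and 0.23. ALDH18A1 was called lower in 1 setting, without EZA replicate 3 and with the trend removed, at -0.24 ± 0.06 (SE; adjusted p = 0.00353, edgeR).

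**Figure D5:**
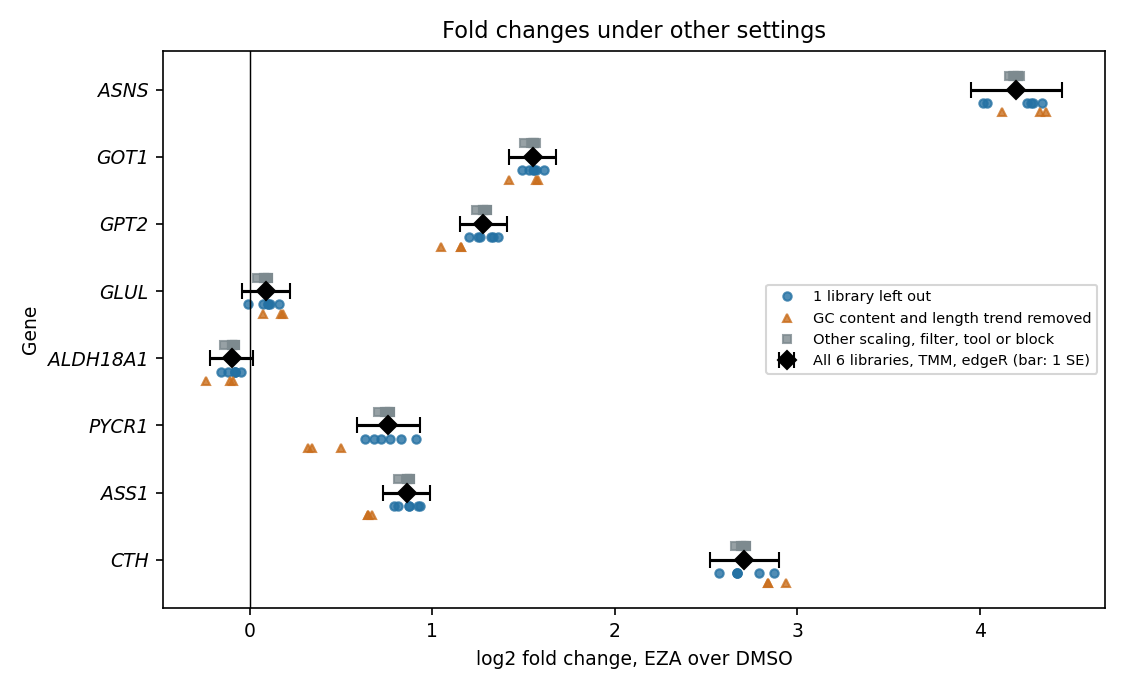
Log2 fold change (EZA over DMSO) of the 8 genes with all 6 libraries (diamonds, bars of 1 SE) and under 17 other settings (small symbols). PYCR1 lies at 0.34 with the GC content and length trend removed and at 0.32 with the replicate block as well, while ASNS stays between 4.02 and 4.36.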

How the data were processed

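Per the labels' protocols, polyadenylated RNA was made into libraries without strand information. HISAT2, featureCounts, FastQC and DESeq2 are named for the build GRCh38, per the submitters' processing notes, without versions or options. For each of the 6 libraries the table as deposited holds counts and FPKM for Ensembl genes, per the file headers. Counts were used for tests and FPKM only for levels per length and an alternative scaling.

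Symbols, positions, GC content and exon overlaps came from GENCODE 44, which held 58207 of the 58735 identifiers. Members, lists and tests were chosen with earlier results of these data known. Genes kept by filterByExpr (13503) were tested, after TMM scaling, by the robust quasi-likelihood F test of edgeR with treatment as the single term. Standard errors came from the F statistic. Of other pathway genes, those called with the 3 largest changes per list were named, and 1 of the other direction. Ratios of gene pairs used exact permutation over libraries; GPT and CBS had too few counts for a ratio, and 2 of the 4 pairs tested, with 2 pathway genes, are not reported here. The GC and length trend was removed per library by lowess (span 0.3). The edgeR test was checked on simulated counts. Intervals cover counting error only. Alternatives used DESeq2 1.42.0 and limma 3.58.1. The main test ran in edgeR 4.0.16 under R 4.3.3, and summaries in Python 3.11.15.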

Additional observations from a re-analysis of the deposited data

How the results depend on the processing

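Of the 8 enzymes, 6 were called higher with all 6 libraries, and 4 to 6 were called higher in the 17 other settings. The count was 5 without EZA replicate 1, DMSO replicate 2 or DMSO replicate 3, and 4 without DMSO replicate 1. It was 5 with the GC content and length trend removed, and 6 with each other scaling, either other filter, DESeq2 or limma-voom. With the replicate number as a block it was 6, and 4 with the trend removed as well. Same-numbered EZA and DMSO libraries deviated from their group means with correlations of 0.03, -0.17 and 0.03, against -0.13 to 0.17 between other numbers. No shared deviation by number was seen, which cannot show whether same-numbered samples were handled together. The block took all calls to 1970. The count called lower was 0, except 1 (ALDH18A1) without EZA replicate 3 and with the trend removed. Past the study's threshold 4 were higher in each setting. GLUL was at 0.09 on the log2 scale, and at -0.01 (without EZA replicate 3) to 0.16 (without EZA replicate 1) with 1 library left out. Calls over all genes were 2392, and 220 to 5289 with 1 library left out, 1355 with the trend removed, 472 with the block as well and 5118 with the trend removed without EZA replicate 3. The lowest, 220 and 254, were without DMSO replicate 1 and 3, then 787 without DMSO replicate 2, 1469 and 1574 without EZA replicate 2 and 1, and 5289 without EZA replicate 3. The cause was not tested. The 12 to 20 ASNS counts per DMSO library limit its fold change, and an exact permutation test of a ratio cannot go below p = 0.1 with 3 against 3 libraries.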

Other observations

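Of 49 other pathway genes, 0 were called lower in EZA by the main edgeR test, DESeq2 or limma-voom with all 6 libraries. In edgeR with library size alone, or with no filter on low counts, 1 of the other pathway genes was called lower. At an unadjusted p below 0.05 in edgeR 5 were lower. Of all tested genes, edgeR called 7.82% lower, and 16.6% were lower at that unadjusted p. Without EZA replicate 3, 9 were called lower and 16 higher, in a fit where 19.2% of all tested genes were lower and 19.1% higher. Values of 3 of the 9 follow, chosen with results in view. In these 3, EZA replicate 3 had the highest EZA value, as in the rest of the 9 apart from GMPS and ASNSD1. In GMPS and ASNSD1 it had the lowest. GMPS was at -0.42 on the log2 scale with all 6 libraries and -0.30 without EZA replicate 3, and ASNSD1 at -0.35 and -0.31. PFAS, an amidotransferase of purine synthesis, was at 175, 146 and 387 CPM in EZA replicates 1 to 3 and 181, 226 and 193 CPM in DMSO. With all 6 libraries its log2 fold change was 0.24 ± 0.32 (SE; edgeR adjusted p = 0.635), and without EZA replicate 3 it was -0.31 ± 0.11 (adjusted p = 0.0253). PPAT, which starts purine synthesis, was at 58.5, 56.9 and 78.7 CPM in EZA and 99.7, 74.1 and 88.5 CPM in DMSO, with -0.44 ± 0.17 (adjusted p = 0.108) and, without that library, -0.60 ± 0.12 (adjusted p = 1.24e-04). MTR, methionine synthase, was at 46.0, 37.2 and 64.0 CPM in EZA and 62.7, 57.6 and 65.7 CPM in DMSO, with -0.34 ± 0.19 (adjusted p = 0.245) and, without that library, -0.57 ± 0.12 (adjusted p = 2.41e-04). The part of the low mitochondrial share of EZA replicate 3 (0.203% of counts) in these values was not tested.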
